A study of Mus musculus with 16 samples.

Results

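The 8 genes described here are Hmgcs1, Idi1, Fdps, Fdft1, Sqle, Lss and Cyp51, which encode enzymes of cholesterol synthesis, and Srebf2, which encodes the transcription factor SREBP-2. They were chosen by gene name, and the estimated counts of all transcripts with that name were summed. They are 8 of the 23235 gene names in the deposited mRNA table, and all 8 were among the 15364 genes abundant enough to be tested.

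RNA was sequenced from the skeletal muscles of 16 male C57BL/6J mice, with 1 library per mouse and 4 mice per group. The control mice ate a normal diet. The HFD mice ate a diet with 60% fat, and the HFD + RSV and HFD + MET mice were HFD-fed mice treated with resveratrol or metformin for 6 weeks after 8 weeks of HFD. All mice were bought at 6 weeks of age. The labels do not say which muscle was taken. Within a group, mice are numbered 1 to 4 in order of deposition, and the numbers pair no mice between groups.

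Cells make cholesterol from acetyl-CoA through mevalonate, isoprenoid units, squalene and lanosterol. When sterols are low, SREBP-2 is carried by SCAP from the endoplasmic reticulum to the Golgi, where it is cut and released to switch on most genes of the pathway and genes of lipoprotein uptake. INSIG proteins hold SCAP back when sterols are plentiful. The farnesyl diphosphate made by the pathway also feeds ubiquinone, dolichol and protein prenylation.

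The total count over both deposited tables ranged from 20281801 to 34021101 per mouse. The summed level of 10 skeletal muscle markers ranged from 58400 to 111000 CPM (counts scaled to a common library size). Although the extraction protocol names retinas, 6 retina markers summed to 0.276 to 1.33 CPM, and Pde6b and Crx had no row in the table. Control mouse 3 and HFD + MET mouse 3 stood apart, with 408 and 89.9 CPM of Ucp1, the uncoupling protein of brown fat, against 0.224 to 39.9 CPM in the other 14 mice. The labels of the 4 HFD mice share a leading number that no other group carries, so any cage or batch it stands for cannot be told apart from the diet.

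SREBP-2 binds sterol regulatory elements, usually beside sites of the factors NF-Y and Sp1. Of the 8 genes, 5 (Hmgcs1, Idi1, Lss, Cyp51 and Srebf2) had a promoter sequence in the RefSeq table used here (GRCm38.p6). The 250 bases before the RefSeq start were searched on both strands for TCACNCCAC (a sterol regulatory element), CCAAT (NF-Y) and GGGCGG (Sp1). Their matches did not overlap in these 5 genes. TCACNCCAC was present in 1 of the 5, Hmgcs1, against 1.05% of all 32851 promoters. CCAAT was in 5 of 5 against 33.8% of all promoters, and GGGCGG was in 5 of 5 against 32.7%. A match describes letters and not a bound site. The Idi1 window runs to chr13:8885605, past the start of its most abundant transcript at 8885501. The Cyp51 window (minus strand) begins at chr5:4104698, inside its most abundant transcript, which reaches 4104746. All Idi1 matches and the CCAAT match of Cyp51 lie within the span of those transcripts and not upstream of them. Hmgcs1 (chr13:119690101-119690350, plus strand) is shown for its sterol element, and Lss (chr10:76531355-76531604, plus strand) for comparison, with the matches to the 3 motifs in capitals.
Hmgcs1: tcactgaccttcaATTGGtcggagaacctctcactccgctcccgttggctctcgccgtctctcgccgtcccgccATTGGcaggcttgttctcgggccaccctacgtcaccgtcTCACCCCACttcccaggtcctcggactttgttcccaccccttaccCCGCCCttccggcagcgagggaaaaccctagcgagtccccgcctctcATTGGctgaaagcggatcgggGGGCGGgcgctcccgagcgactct
Lss: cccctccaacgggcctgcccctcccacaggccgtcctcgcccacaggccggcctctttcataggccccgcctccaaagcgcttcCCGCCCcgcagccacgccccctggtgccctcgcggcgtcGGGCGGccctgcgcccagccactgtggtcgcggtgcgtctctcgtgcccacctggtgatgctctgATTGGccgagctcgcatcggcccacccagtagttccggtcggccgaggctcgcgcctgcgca
In Hmgcs1 the sterol element reads TCACCCCAC and lies 137 to 129 bases before the start, between CCAAT matches at 176 to 172 and 45 to 41 bases before it. In Lss the CCAAT match lies 62 to 58 bases before the start, and the 2 GGGCGG matches lie at 166 to 161 and 127 to 122 bases.

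Compared per transcript length over all 16 mice, Fdft1 had the highest level (28.3 ± 10.8 FPKM, mean ± SD, n = 16), followed by Hmgcs1 (15.4 ± 7.47) and Fdps (7.12 ± 0.946). Srebf2 (3.98 ± 0.638) came next, and Sqle was lowest (0.411 ± 0.276). Idi1 (2.48 ± 0.826), Cyp51 (1.81 ± 0.547) and Lss (1.66 ± 0.56) lay between them, and these neighbours differed by less than their spread over the mice. The FPKM of a gene is the sum over its transcripts, so a short transcript weighs more per count. In Fdft1, a retained-intron transcript of 775 bases held 28.2% of the counts, while its 2 protein-coding transcripts have 2860 and 3698 bases. Its rank above Hmgcs1 therefore rests partly on RNA not annotated as coding, and the order over coding transcripts alone was not tested. Sqle was read from 16 to 84 counts per mouse, the least of any of the 8 genes. The levels below are in CPM, which compares mice within a gene.

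**Figure D1:**
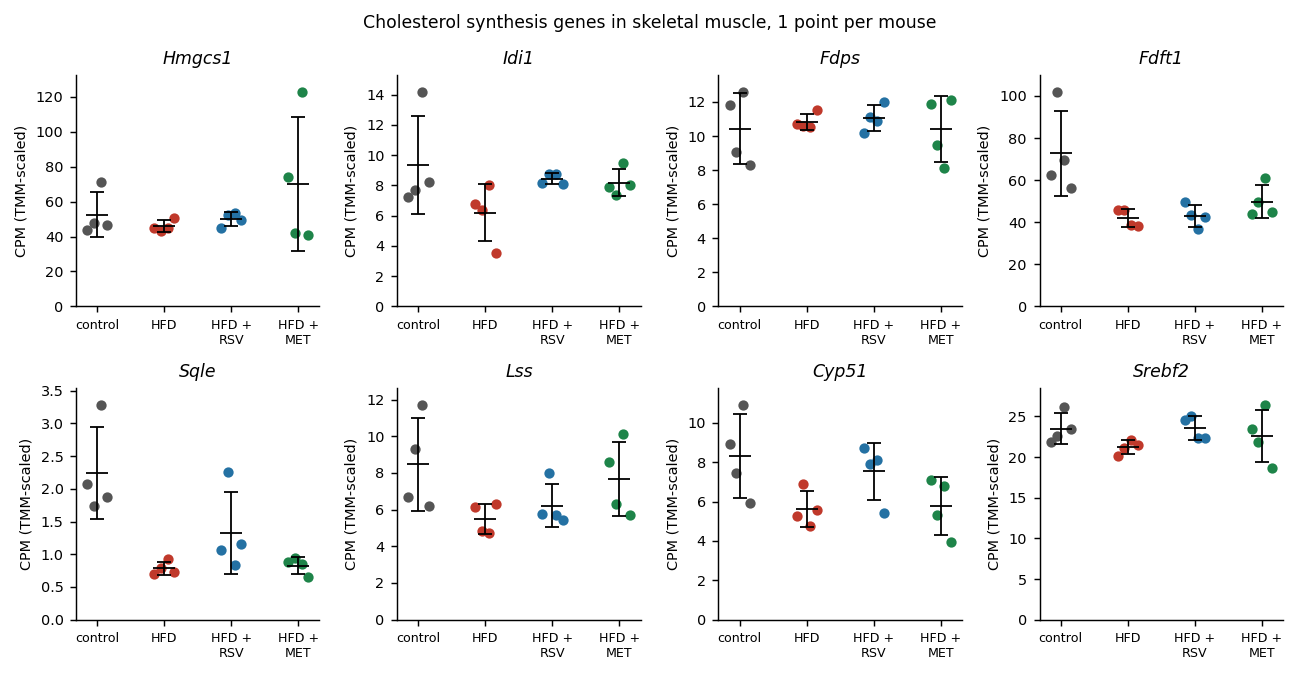
Levels of the 8 genes in CPM (linear axes from 0), with 1 point per mouse and the mean ± SD of each group in black. Sqle and Fdft1 were lower in each of the 4 HFD mice than in each of the 4 control mice, while Fdps stayed between 8.11 and 12.6 CPM in all 16 mice.

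The HFD group was compared with the control group to see how the diet alone was associated with the pathway. Sqle and Fdft1 were downregulated in the HFD group, to 0.352 and 0.58 of the control level. The other 6 genes did not pass the adjusted test. Of the 8 genes, 2 were therefore called lower at an adjusted P below 0.05, against 1.11% of all 15364 genes called lower. The median log2FC of the 8 genes was -0.58, against -0.02 for all genes tested, and 7 of the 8 had a negative log2FC, against 52.4% of all genes. In whole muscle, fewer cells of a type and less RNA per cell cannot be told apart.

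Sqle encodes squalene epoxidase, which adds the first oxygen to squalene and is a rate-limiting step of the sterol branch. Its gene (ENSMUSG00000022351) lies at chr15:59315077-59331192 on the plus strand (GRCm38). The level of Sqle was 2.08, 1.74, 3.28 and 1.87 CPM in the 4 control mice. It was 0.692, 0.79, 0.928 and 0.735 CPM in the 4 HFD mice. The groups did not overlap, and control mouse 3 was the highest of all. The log2FC was -1.51 (SE 0.30, adjusted P = 0.0289), with an exact two-sided permutation P of 0.0286, the smallest that 4 against 4 mice can give.

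Fdft1 encodes squalene synthase, which joins 2 molecules of farnesyl diphosphate and commits them to sterols. Its gene (ENSMUSG00000021273) lies at chr14:63145150-63179578 on the minus strand. Its level was 62.5, 102, 69.7 and 56.4 CPM in the control mice. In the HFD mice it was 45.7, 45.8, 38.6 and 38.2 CPM. All 4 HFD mice were again below all 4 control mice, and control mouse 2 was the highest. The log2FC was -0.79 (SE 0.17, adjusted P = 0.0343, exact permutation P = 0.0286). Over all transcripts, Sqle and Fdft1 were 2 of 8 genes whose groups did not overlap, HFD lower, against 9.44% of all genes.

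Each call was lost in 6 of the 8 fits that left out 1 mouse. Leaving out each of the 8 mice in turn, the log2FC of Sqle stayed between -1.62 and -1.26 with unadjusted P from 0.000156 to 0.000725, and that of Fdft1 between -0.89 and -0.58 with unadjusted P from 0.000102 to 0.00138. The adjusted P of each passed the threshold without control mouse 1 or 4, and rose to between 0.0582 and 0.0983 without control mouse 2, control mouse 3 or any 1 of the HFD mice. Over those fits, the number of all genes called ranged from 16 to 773, against 374 with all mice. Without both control mouse 3 and HFD + MET mouse 3, Sqle (log2FC -1.26, adjusted P = 0.0373) and Fdft1 (-0.81, adjusted P = 0.0262) were still called.

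Lss, Idi1 and Cyp51 formed a second tier. Lss, which encodes lanosterol synthase, the enzyme that closes the sterol rings, was at 6.68, 9.3, 11.7 and 6.19 CPM in the control mice and 6.14, 4.82, 4.73 and 6.29 CPM in the HFD mice (log2FC -0.63, SE 0.22, adjusted P = 0.114). Only HFD mouse 4 exceeded the lowest control mouse. Idi1, whose enzyme interconverts the 2 five-carbon isoprenoid units, was at 7.25, 7.72, 14.2 and 8.22 CPM in the control mice and 6.79, 6.4, 8 and 3.54 CPM in the HFD mice (log2FC -0.60, SE 0.23, adjusted P = 0.135). HFD mouse 3 lay within the control range. Cyp51, whose enzyme removes a methyl group from lanosterol, was at 8.93, 7.43, 10.9 and 5.93 CPM in the control mice and 5.28, 6.9, 4.77 and 5.56 CPM in the HFD mice (log2FC -0.56, SE 0.22, adjusted P = 0.141). With an unadjusted P below 0.05, 5 of the 8 genes (Sqle, Fdft1, Lss, Idi1 and Cyp51) were lower, against 12.5% of all genes. Without control mouse 3 this number was 2, and the median log2FC of the 8 genes was -0.36. The log2FC was then -0.43 for Lss, -0.32 for Idi1 and -0.40 for Cyp51.

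Hmgcs1, Fdps and Srebf2 showed smaller differences. Hmgcs1, whose enzyme makes HMG-CoA at the start of the mevalonate route, was at 43.7, 47.9, 71.5 and 46.8 CPM in the control mice and 44.9, 43.4, 44.8 and 50.9 CPM in the HFD mice (log2FC -0.19, SE 0.28, adjusted P = 0.71). Srebf2 ranged from 21.8 to 26.1 CPM in the control mice and from 20.1 to 22.1 CPM in the HFD mice (log2FC -0.15, SE 0.10, adjusted P = 0.357). Fdps, which encodes farnesyl diphosphate synthase at the branch to the other isoprenoids, had a log2FC of 0.06 (SE 0.14, adjusted P = 0.849). Fdps was the gene of the 8 with the log2FC nearest 0, while Fdft1, which acts on its product, was called lower. A test of the difference between these 2 genes was not made. By the criterion of the study, an unadjusted P below 0.05 with an absolute log2FC above 1, Sqle alone of the 8 genes was downregulated, against 4.94% of all genes called in either direction.

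**Figure D2:**
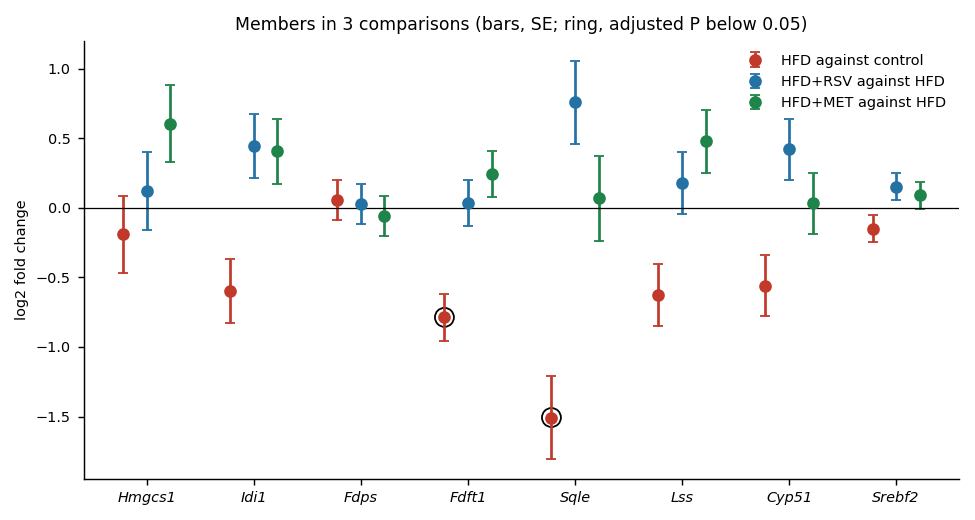
The log2FC of each gene (points) with its SE (bars) in HFD against control mice (red), and in HFD + RSV (blue) and HFD + MET (green) mice against HFD mice. Rings mark an adjusted P below 0.05, which only Sqle and Fdft1 reached, both in HFD mice against control mice.

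RSV treatment was compared with HFD alone. None of the 8 genes passed the adjusted test with edgeR, DESeq2 or limma, and none of the 15364 genes did with edgeR (0% called). All 8 genes had a log2FC above 0, from 0.03 in Fdps to 0.76 in Sqle, against 51.1% of all genes, and their median was 0.16 against 0.01 for all genes. Without HFD + RSV mouse 2 the median was 0.11 and no gene of the 8 was higher at an unadjusted P below 0.05. This comparison shares the 4 HFD mice with the comparison of the diet, so a low value in those mice moves both. With an unadjusted P below 0.05, 1 of the 8 genes, Sqle, was higher, against 2.82% of all genes.

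Sqle was at 1.07, 2.25, 0.843 and 1.16 CPM in the HFD + RSV mice (log2FC 0.76, SE 0.30, adjusted P = 0.999, exact permutation P = 0.0571). HFD + RSV mouse 2 was above 3 of the 4 control mice, and mouse 3 lay within the range of the HFD mice. Without HFD + RSV mouse 2 the log2FC of Sqle was 0.38. Idi1 was at 8.14, 8.76, 8.74 and 8.09 CPM (log2FC 0.45, SE 0.23, adjusted P = 0.999), and every HFD + RSV mouse was above every HFD mouse. Srebf2 was at 24.5, 25.1, 22.4 and 22.3 CPM (log2FC 0.15, SE 0.10, adjusted P = 0.999), also without overlap. Idi1 and Srebf2 were 2 of 8 genes whose groups did not overlap with RSV higher, against 1.88% of all genes, and the exact permutation P of each was 0.0286. The gaps were small, with 8.09 CPM in the lowest HFD + RSV mouse against 8 in the highest HFD mouse for Idi1, and 22.3 against 22.1 for Srebf2. Leaving out 1 mouse, the log2FC of Idi1 ranged from 0.25 to 0.59, with unadjusted edgeR P from 0.0287 to 0.219.

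Cyp51 was at 8.72, 7.89, 8.12 and 5.41 CPM in the HFD + RSV mice (log2FC 0.42, SE 0.22), with mouse 4 inside the HFD range. Lss was at 5.77, 7.98, 5.68 and 5.45 CPM (log2FC 0.18, SE 0.22). Fdft1 was at 49.7, 43.3, 36.7 and 42.4 CPM (log2FC 0.03, SE 0.17), a range that held all 4 HFD mice. Hmgcs1 (log2FC 0.12, SE 0.28) and Fdps (0.03, SE 0.14) also overlapped.

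The 2 genes called lower after HFD had nearly equal log2FC when the HFD + RSV group was set against the control group, and their difference was not tested. Fdft1 was lower in every HFD + RSV mouse than in every control mouse (log2FC -0.76, SE 0.17, unadjusted P = 0.000409, adjusted P = 0.119 with edgeR). Sqle overlapped the control mice (log2FC -0.75, SE 0.29, unadjusted P = 0.0197, adjusted P = 0.242). With an unadjusted P below 0.05, 2 of the 8 genes (Fdft1 and Sqle) were lower than in the control group, against 7.98% of all genes, and 1 of 8 was without overlap, against 5.88%. With edgeR, none of the 8 passed the adjusted test, where 0.00651% of all genes did. With DESeq2, Fdft1 was called lower (adjusted P = 0.00484), against 1.2% of genes called lower with DESeq2.

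Metformin treatment was compared with HFD alone in the same way. None of the 8 genes passed the adjusted test with edgeR, DESeq2 or limma, and 0.013% of all genes did with edgeR. With an unadjusted P below 0.05, 1 of the 8 genes, Hmgcs1, was higher, against 5.23% of all genes. Hmgcs1 was at 74.1, 42.2, 123 and 40.7 CPM in the HFD + MET mice (log2FC 0.61, SE 0.28, adjusted P = 0.618, exact permutation P = 0.429). Mice 1 and 3 were above all HFD mice, and mice 2 and 4 were below them. Without HFD + MET mouse 3, the log2FC of Hmgcs1 was 0.19.

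Lss was at 8.58, 6.33, 10.1 and 5.71 CPM in the HFD + MET mice (log2FC 0.48, SE 0.22, adjusted P = 0.618), and mouse 3 was again the highest. Idi1 was at 7.92, 7.38, 9.46 and 8.01 CPM (log2FC 0.41, SE 0.23). Fdft1 was at 43.8, 49.5, 60.9 and 44.8 CPM (log2FC 0.24, SE 0.17). Sqle was at 0.88, 0.936, 0.845 and 0.647 CPM, within or near the range of the HFD mice (log2FC 0.07, SE 0.30). Cyp51 (log2FC 0.03, SE 0.22), Srebf2 (0.09, SE 0.10) and Fdps (-0.06, SE 0.14) differed by less than their SE. Of the 8 genes, 7 had a log2FC above 0, against 53.1% of all genes, with a median of 0.17. Without HFD + MET mouse 3 the median was 0.09, and no gene of the 8 was higher at an unadjusted P below 0.05.

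Against the control group, Sqle was lower in every HFD + MET mouse (log2FC -1.44, SE 0.30, unadjusted P = 0.000211, adjusted P = 0.17 with edgeR and 0.00921 with DESeq2). DESeq2 called 0.436% of genes lower in this comparison. With an unadjusted P below 0.05, 3 of the 8 genes (Sqle, Fdft1 and Cyp51) were lower than in the control group, against 4.15% of all genes, and 1 of 8 was without overlap, against 1.57%. None of the 8 passed the adjusted test with edgeR (0% of all genes). When the HFD + RSV and HFD + MET groups were compared with each other, Sqle had a log2FC of 0.69 (SE 0.30, unadjusted P = 0.0353, adjusted P = 0.962), and it was 1 of 8 genes higher with RSV at an unadjusted P below 0.05, against 1.67% of all genes. In a single test over all 4 groups, the adjusted P was 0.0797 for Sqle, 0.106 for Fdft1 and 0.327 to 0.967 for the other 6 genes, where 0.117% of all genes passed.

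The rest of the pathway was read from lists of genes beside the 8. Of 14 other cholesterol synthesis enzymes, none passed the adjusted test in HFD mice against control mice with edgeR, 4 had a lower level with an unadjusted P below 0.05 against 12.5% of all genes, and 2 were called lower with DESeq2 against 5.03%. Their median log2FC was -0.20, and 10 of the 14 were below 0. Acat2, which joins acetyl-CoA units at the first step, was at 14.2, 12.3, 38.6 and 10 CPM in the control mice and 3.42, 3.04, 3.67 and 6.98 CPM in the HFD mice (log2FC -2.14, SE 0.62, adjusted P = 0.0721). Pmvk, the second kinase of the mevalonate route, was at 8.87, 7.17, 14.1 and 5.88 CPM in the control mice and 5.45, 5.24, 5.3 and 5.19 CPM in the HFD mice (log2FC -0.77, SE 0.22, adjusted P = 0.0718). Both had every HFD mouse below every control mouse, with control mouse 3 highest. Without that mouse the log2FC was -1.51 for Acat2 and -0.47 for Pmvk. Ebp, at 5.5 to 8.72 CPM in the control mice and 5.17 to 5.37 CPM in the HFD mice, was the only other of the 14 without overlap, HFD lower. Among all genes, 9.44% were without overlap in this direction.

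Of 6 genes of SREBP regulation, none passed with edgeR. At an unadjusted P below 0.05, 1 was lower, against 12.5% of all genes, and 1 was called lower with DESeq2, against 5.03%. Insig1, itself a target of SREBPs, was at 68.5, 64.2, 187 and 49.9 CPM in the control mice and 21.9, 23.3, 27.4 and 36.7 CPM in the HFD mice (log2FC -1.76, SE 0.48, adjusted P = 0.0634). Without control mouse 3 its log2FC was -1.16. Of 14 genes of uptake, traffic and storage, 13 were tested, and 6 had a lower level at an unadjusted P below 0.05, against 12.5% of all genes. With DESeq2, 4 were called lower, against 5.03%. With edgeR, 1 was called lower, against 1.11% of all genes. That gene was Mylip, an LXR-induced ubiquitin ligase that limits lipoprotein uptake, with 31.7, 27.1, 25.5 and 24 CPM in the control mice and 17, 14.3, 18.5 and 20 CPM in the HFD mice (log2FC -0.63, SE 0.11, adjusted P = 0.0192). Its level was 21 to 24 CPM in the HFD + RSV mice (log2FC 0.36 against HFD, SE 0.11, adjusted P = 0.999) and 21.1 to 26.8 CPM in the HFD + MET mice (log2FC 0.46, SE 0.11, adjusted P = 0.468), above all HFD mice in both groups.

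Of 5 genes of cholesterol efflux and LXR, none passed with edgeR or DESeq2, and their median log2FC was -0.62. At an unadjusted P below 0.05, 2 were lower, against 12.5% of all genes. The 9 genes of the isoprenoid branch had a median log2FC of 0.13, and none passed with edgeR or DESeq2 while 1 was higher at an unadjusted P below 0.05, against 11.7% of all genes. Fatty acid synthesis, the main target of SREBP-1c, had the median furthest from 0 of these lists. Of its 9 genes, 4 were called lower with edgeR, against 1.11% of all genes, and 6 with DESeq2, against 5.03%. The median log2FC over the list was -2.71. Fasn, fatty acid synthase, was at 2400, 2700, 6470 and 454 CPM in the control mice and 53.7, 39.3, 84.1 and 73 CPM in the HFD mice (log2FC -5.59, SE 0.88, adjusted P = 0.0144). Elovl6 (log2FC -6.05), Acaca (-3.38) and Acly (-2.71), the last of which supplies acetyl-CoA to both pathways, were the other 3 called with edgeR. Leaving out 1 mouse, the adjusted P rose to as much as 0.0535 for Fasn, 0.0621 for Elovl6, 0.0554 for Acaca and 0.0657 for Mylip, and Acly stayed at or below 0.0466. Fasn was not called without HFD mouse 1. Elovl6 and Acaca were not called without control mouse 2, HFD mouse 1 or HFD mouse 2, and Mylip was not called without any 1 of these or control mouse 3.

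In HFD + RSV mice against HFD mice, none of these 6 lists had a gene that passed with edgeR or DESeq2. At an unadjusted P below 0.05, only Mylip and Stard4, a sterol carrier (log2FC 0.91, SE 0.29, adjusted P = 0.999), were higher, 2 of the 56 genes tested in the lists, against 2.82% of all genes. In HFD + MET mice against HFD mice, none of the 6 lists had a gene that passed with edgeR or DESeq2 either, and 7 of the 56 genes were higher at an unadjusted P below 0.05, against 5.23% of all genes. Among them were Mylip, the lipoprotein receptor gene Scarb1 (log2FC 0.58, SE 0.17, adjusted P = 0.593) and Srebf1, which encodes SREBP-1 (log2FC 0.70, SE 0.20, adjusted P = 0.576).

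**Figure D3:**
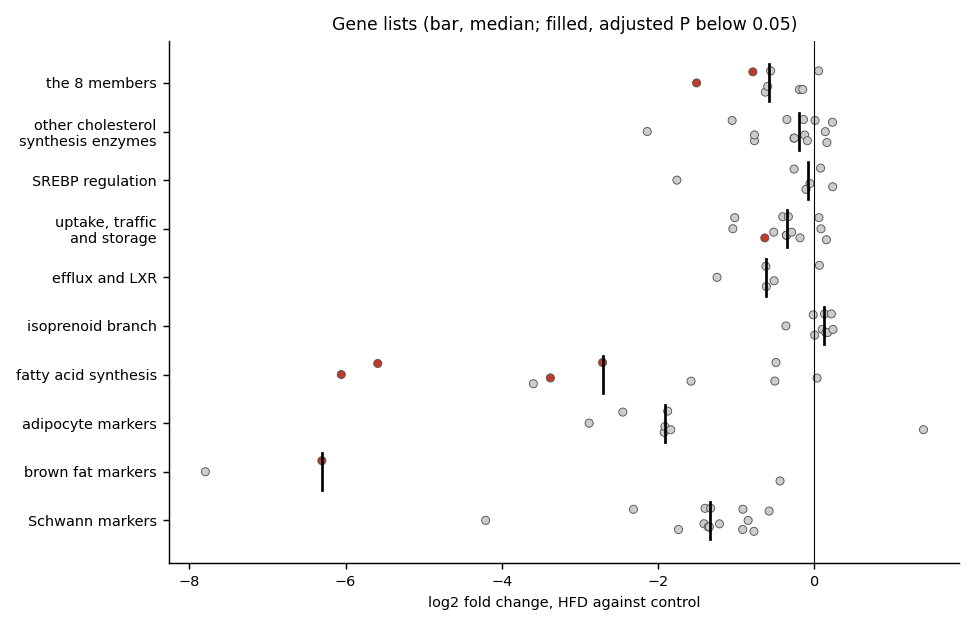
The log2FC of HFD mice against control mice (horizontal axis) for each gene of the lists (points), with the list median (bar) and genes with an adjusted P below 0.05 filled red. The 4 genes called in fatty acid synthesis lie from -6.05 to -2.71, further from 0 than Sqle and Fdft1, and the isoprenoid branch lies around 0.

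The summed adipocyte and brown fat markers did not overlap between control and HFD mice. The sums of the Schwann, blood, liver, macrophage and endothelium markers did overlap. The retina markers, low in all mice, were without overlap too, at 0.676 to 1.33 CPM in the control mice and 0.276 to 0.575 in the HFD mice. The 7 adipocyte markers summed to 1040 to 4720 CPM in the control mice, 208 to 1030 in the HFD mice, 301 to 1210 in the HFD + RSV mice and 211 to 4380 in the HFD + MET mice. The 3 brown fat markers (Ucp1, Cidea and Ppargc1b) summed to 49.6 to 725 CPM in the control mice and 17.7 to 19.8 CPM in the HFD mice, and Cidea was called lower (log2FC -6.30, adjusted P = 0.0474). Leaving out 1 mouse, Cidea lost this call in 7 of 8 fits, with an adjusted P of up to 0.136. The 14 Schwann cell markers summed to 77.6 to 262 CPM in the control mice, 55.2 to 79.3 in the HFD mice, 52.1 to 490 in the HFD + RSV mice and 52.7 to 102 in the HFD + MET mice. In HFD + RSV mice against HFD mice all 14 had a log2FC above 0, against 51.1% of all genes, with a median of 1.51. At an unadjusted P below 0.05, 11 were higher, against 2.82% of all genes. Their sums in HFD + RSV mice 1 to 4 were 113, 490, 52.1 and 177 CPM, so mouse 3 was below every HFD mouse. The 5 blood markers summed to 357 to 881 CPM in the control mice, 362 to 477 in the HFD mice, 507 to 1340 in the HFD + RSV mice and 500 to 1390 in the HFD + MET mice. Their sums did not overlap between the HFD mice and either treated group. The 4 liver markers summed to 5.35 to 195 CPM in the control mice, 1.95 to 61 in the HFD mice, 2.37 to 113 in the HFD + RSV mice and 3.51 to 77.4 in the HFD + MET mice. The 6 macrophage markers summed to 166 to 237 CPM in the control mice and 112 to 221 in the HFD mice. The 4 endothelium markers summed to 292 to 363 CPM in the control mice and 260 to 334 in the HFD mice. The part of the blood, liver, macrophage and endothelium markers in the results was not tested. None of these markers was at 0 in all mice. The 8 cholesterol genes summed to 165, 208, 220 and 157 CPM in the control mice and 140, 140, 135 and 138 CPM in the HFD mice. They summed to 153, 159, 147 and 146 CPM in the HFD + RSV mice and 178, 143, 245 and 135 CPM in the HFD + MET mice.

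**Figure D4:**
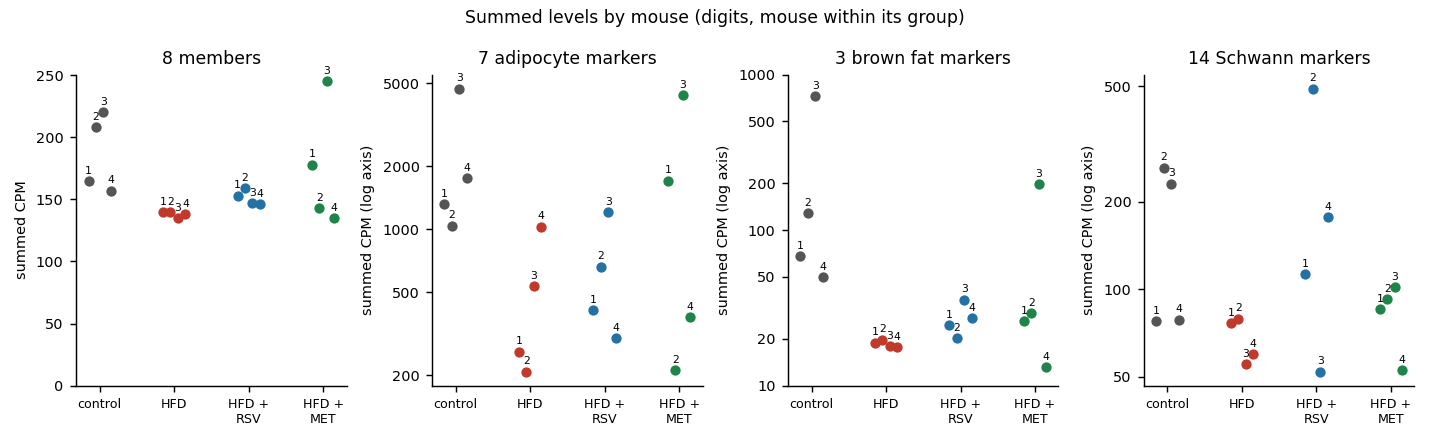
Summed CPM of the 8 cholesterol genes (linear axis from 0) and of the adipocyte, brown fat and Schwann markers (log axes), 1 point per mouse with its number. Control mouse 3 and HFD + MET mouse 3 were highest in their groups for the cholesterol genes (220 and 245 CPM), adipocyte markers (4720 and 4380) and brown fat markers (725 and 197), and HFD + RSV mouse 2 was highest of all for Schwann markers (490).

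With the summed Schwann markers as a covariate, the median log2FC of the 8 genes in HFD mice against control mice was -0.40, and with the adipocyte markers it was -0.28. With the brown fat markers it was -0.07. None of the 8 genes was called with any of the 3 covariates. The log2FC of Sqle was then -1.13, -1.32 and -1.16, and that of Fdft1 -0.59, -0.83 and -0.54, with unadjusted P from 0.000497 to 0.0244. The groups do not overlap in the summed brown fat or adipocyte markers, so these covariates and the diet are partly the same contrast, and their part in the result cannot be told apart from it. In HFD + RSV mice against HFD mice, the median log2FC of the 8 genes with the Schwann covariate was 0.05, and no gene of the 8 was higher at an unadjusted P below 0.05.

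The transcripts behind each gene differed in how clearly they were resolved. All 35 transcripts of the 8 genes have their own deposited row, and 34 have the same position in GENCODE M21. Srebf2 has 1 transcript. In Idi1, Cyp51 and Hmgcs1, 1 transcript held 98%, 95.6% and 90.8% of the counts. In Fdft1 the 2 protein-coding transcripts alternated between mice. The transcript Fdft1-201 had 0 counts in 5 mice, in which Fdft1-204 had 680 to 905 counts, while in the other 11 mice Fdft1-201 had 491 to 2220 and Fdft1-204 had 2 to 191 counts. A retained-intron transcript, Fdft1-203, held 28.2% of the counts of the gene. Sqle varied too, with Sqle-201 at 13% to 94% of its counts within the control mice. Sqle-202 had 44 counts in total, all in control mouse 2. In control mouse 1 the retained-intron transcript Sqle-204 had 28 counts.

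**Figure D5:**
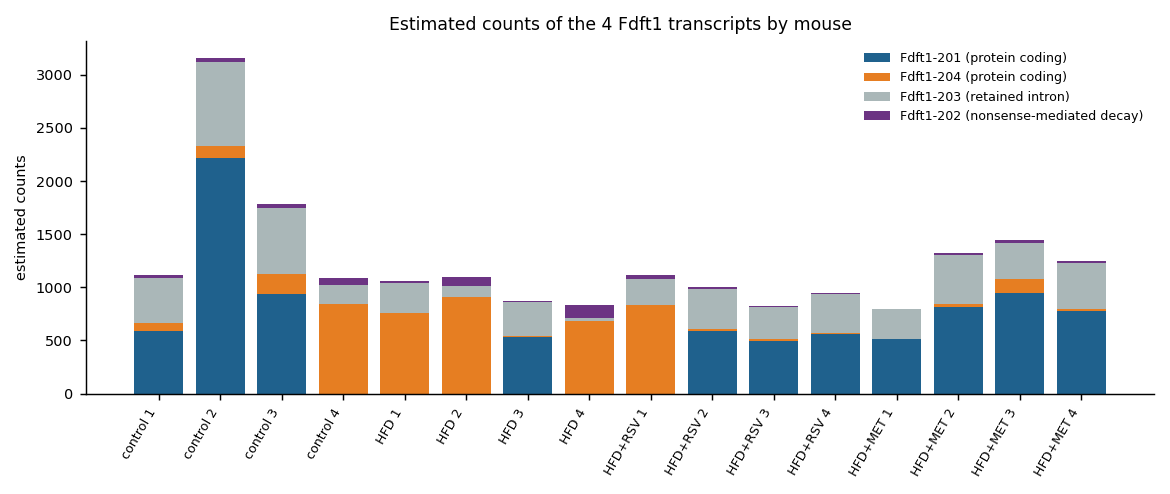
Estimated counts (not scaled for depth) of the 4 Fdft1 transcripts, stacked for each mouse. Fdft1-204 (orange) stands in place of Fdft1-201 (blue) in control mouse 4, HFD mice 1, 2 and 4 and HFD + RSV mouse 1.

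Transcripts not annotated as protein coding held 68.4% of the counts of Lss, 30.9% of those of Fdft1 and 23.4% of those of Sqle, and at most 4.7% of those of the other 5 genes. Lss-201, its main coding transcript, had 0 counts in 3 mice and at most 185 counts. Counting protein-coding transcripts alone, the log2FC in HFD mice against control mice was -1.96 for Sqle (SE 0.63, adjusted P = 0.101) and -0.69 for Fdft1 (SE 0.23, adjusted P = 0.111). In counts not scaled for depth, control mouse 1 had 8 of Sqle-201 and 0 of Sqle-202, against 19 of Sqle-201 in HFD mouse 3. Sqle therefore overlapped between these groups when coding transcripts alone were counted. Fdft1-201 and Fdft1-204 had 584 and 76 counts in control mouse 1, against 0 and 905 in HFD mouse 2. Overlap of Fdft1 over coding transcripts was not tested. No single transcript of the 8 genes passed the adjusted test in HFD mice against control mice, where 7 of 44573 transcripts did.

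The lncRNA table holds 9 transcripts that overlap the 8 genes, 1 of them abundant enough to be tested. NONMMUT024358.2 lies within Srebf2 at chr15:82158042-82161977, with 28 to 67 counts per mouse and a log2FC of -0.05 (SE 0.20, adjusted P = 0.936) in HFD mice against control mice. Reads from an overlapping lncRNA and its host gene cannot be told apart without strand, which is not given in the sources used here.

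Across the 16 mice, the log2 CPM of the 8 genes correlated positively in 23 of 28 pairs, with a median r of 0.42, and in 24 of 28 pairs after the group means were subtracted, with a median of 0.28. These are descriptions over mice that share groups and libraries. Hmgcs1 was closest to Lss (r = 0.71) and Srebf2 (0.69). Fdps stood apart, with r from -0.37 to 0.09 with the other 7 genes, while the 21 pairs without Fdps ranged from 0.08 to 0.71. The genes outside the lists whose log2 CPM was most like the mean of the 8 standardised genes over the 16 mice were Meis2 (r = 0.927), Megf9 (0.922), Fhdc1 (0.917), Isg20 (0.914) and Fnbp1 (0.912).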

How the data were processed

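Paired-end libraries of RNA depleted of ribosomal RNA were sequenced on an Illumina NovaSeq. The submitters' processing notes name fastp, HISAT2 and GRCm38, without versions. The authors estimated counts per transcript with StringTie and deposited expected (estimated) counts, which are whole numbers, and FPKM values. The deposited FPKM show no scaling between mice beyond the total of both tables.

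Counts were summed per gene name (23235 names from 82388 transcripts, after joining 4 rows split over lines) and filtered with filterByExpr (minimum count 10, minimum total count 15). All 16 mice entered 1 quasi-likelihood fit in edgeR 4.0.16 (R 4.3.3) with TMM scaling and robust estimation. A gene was called at a Benjamini-Hochberg adjusted P below 0.05 over the 15364 genes tested. SE is the absolute log2FC divided by the square root of F. CPM were scaled by TMM. limma 3.58.1 on log2(FPKM + 0.1) or log2(FPKM + 1) and DESeq2 1.42.0 were alternatives, as were other scalings, filters, covariates and left-out mice. In counts simulated for HFD mice against control mice (15218 genes), 59% of 200 genes changed by a log2FC of 1 were recovered at the adjusted P, and 5 unchanged genes were called. Totals per mouse of 20281801 to 34021101 leave Sqle at 16 to 84 counts. The 8 genes, the lists and the tests were chosen with earlier results of these data known. Named list genes are those called with edgeR, those whose level turns on a result, and the 5 most alike outside the lists. Acat2, Pmvk, Ebp, Insig1, Stard4, Scarb1, Srebf1, Cidea and the fits added later (both mice numbered 3 left out, brown fat covariate, protein-coding transcripts) were chosen after values were seen.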

Additional observations from a re-analysis of the deposited data

Results flagged for a closer look

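Of the 32 sets of 4 mice (8 genes in 4 groups) searched for a mouse far from the other 3, 3 held one, where chance gives about 1 in 20. Control mouse 3 had 71.5 CPM of Hmgcs1, against 43.7 to 47.9 CPM in the other control mice. The same mouse had 14.2 CPM of Idi1, against 7.25 to 8.22 CPM in the others. HFD + RSV mouse 2 had 7.98 CPM of Lss, against 5.45 to 5.77 CPM in the others of its group.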

How the results depend on the processing

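No paired analysis was possible because no replicate number in the labels links a mouse of one group to a mouse of another. Single genes were refitted under 21 alternatives each, giving 924 values of log2FC for 44 results, of which 818 kept their direction and side of the threshold, 63 lost the adjusted P, 8 gained it and 35 changed sign. None of the 35 was a log2FC that had been called. The causes were not tested. In HFD mice against control mice, the number of the 8 genes called was 0 with the Schwann, adipocyte or brown fat covariate, with the most abundant or the protein-coding transcripts, 1 with limma at a pseudocount of 1 and 1 by the criterion of the study, and 0 to 2 leaving out 1 mouse. By DESeq2 it was 1 in the HFD + RSV and 1 in HFD + MET mice against control mice, and by the criterion of the study 1 in the latter.

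The number of all genes called in HFD mice against control mice was 158 without a filter, 7, 31 and 0 with the Schwann, adipocyte and brown fat covariates, 32 with the most abundant and 131 with the protein-coding transcripts, 998 with 2 groups only, 1544 with DESeq2, 197 and 181 with limma (pseudocounts 0.1 and 1), 759 by the criterion of the study and 16 to 773 leaving out 1 mouse. limma on FPKM moved the median log2FC of all genes to -0.16 and -0.11. In HFD + RSV mice against HFD mice it was 1 with the adipocyte covariate, 1 with the most abundant transcripts, 8 with DESeq2, 166 by the criterion of the study and 0 to 1 leaving out 1 mouse. In HFD + MET mice against HFD mice it was 0 with the adipocyte covariate, without both mice numbered 3 and with limma at either pseudocount, 1 with the most abundant transcripts, the protein-coding transcripts or 2 groups only, 31 with DESeq2, 271 by the criterion of the study and 0 to 2 leaving out 1 mouse. In HFD + RSV mice against control mice it was 7 and 0 with the adipocyte and brown fat covariates, 53 without both mice numbered 3, 355 with DESeq2, 0 with limma at either pseudocount, 418 by the criterion of the study and 0 to 11 leaving out 1 mouse. In HFD + MET mice against control mice it was 19 and 2 with the adipocyte and brown fat covariates, 38 without both mice numbered 3, 141 with DESeq2, 2 and 3 with limma, 250 by the criterion of the study and 0 to 180 leaving out 1 mouse. Between HFD + RSV and HFD + MET it was 1 with the most abundant transcripts, 10 with DESeq2 and 149 by the criterion of the study.

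The values of log2FC that changed sign were as follows. In HFD mice against control mice, Hmgcs1 was 0.45 and 0.61 with the adipocyte and brown fat covariates, Srebf2 was 0.06 with the brown fat covariate, and Fdps was -0.02 with the most abundant transcript, -0.08 and -0.07 with limma, and -0.04 to 0.16 leaving out 1 mouse. In HFD + RSV mice against HFD mice, Hmgcs1 was -0.03, -0.01 and -0.02 with the Schwann, adipocyte and brown fat covariates, Fdft1 was -0.16 with the Schwann covariate, -0.01 with the brown fat covariate, -0.16 with protein-coding transcripts and -0.04 to 0.10 leaving out 1 mouse, Lss was -0.13 with the Schwann covariate, and Fdps was -0.10 with the most abundant transcript and -0.02 to 0.06 leaving out 1 mouse. In HFD + MET mice against HFD mice, Cyp51 was -0.01 with TMM over both tables, -0.12 and -0.14 with the adipocyte and brown fat covariates, -0.06 without both mice numbered 3 and -0.08 to 0.18 leaving out 1 mouse, Sqle was -0.03, -0.01 and -0.05 with the Schwann, adipocyte and brown fat covariates and 0 to 0.17 leaving out 1 mouse, and Fdps was 0.04 without both mice numbered 3, 0.06 and 0.05 with limma and -0.14 to 0.04 leaving out 1 mouse. Depth limits Sqle most, at 16 to 84 counts per mouse.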
